A study of Mus musculus with 6 samples.

Results

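The genes described here are 9 transcripts of neutrophils and of the alarmin response of skin, namely S100a8, S100a9, Lcn2, Slpi, Saa3, Csf3r, Trem1, Clec4d and Itgam. They were chosen by gene symbol from the 15667 genes of the deposited table. All 9 had a row, none had a mean below 1 CPM (reads scaled to a common library total), and all were among the 14306 genes tested. They were measured by RNA-seq in tick-bitten ear skin of 3 mice with an intact adiponectin gene (Adipo+/+, WT) and of 3 littermates homozygous for a null allele of it (Adipo-/-, KO). All 6 mice were young adult females of a mixed B6 and 129 background, and Ixodes scapularis nymphs were feeding on the ears of both genotypes. The null allele is present in every cell of the animal from conception. Each library came from 1 punch of skin at a bite site, and unbitten skin was not analysed here. Adiponectin is a hormone secreted by fat cells. The comparison addresses whether bitten skin differs between mice with and without it. A changed response to the bite cannot be told from a difference present before the bite.

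Neutrophils are short-lived leukocytes that leave the blood at sites of injury, drawn by chemokines and guided by integrins. Their maturation depends on granulocyte colony-stimulating factor, and they sense damage and microbes through surface receptors. Alarmins are proteins released by stressed or dying cells that call in such leukocytes. Both keratinocytes of injured epidermis and neutrophils make several of them, so these genes do not mark a single cell type in skin.

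Depth, worked out from the lowest values of each library, was 3403780 to 6591329 reads, at which 3 reads stood for 0.455 to 0.881 CPM. Adipoq, the targeted gene, was at 30.5 to 63.7 CPM in WT and at 0, 2 and 0 reads in KO replicates 1, 2 and 3, so all 6 labels matched it. The keratins Krt5, Krt14 and Krt10, which mark epidermis, were at 3526 CPM or more in every library. Libraries of the WT group stood apart from each other. The summed level of 22 hair follicle genes was 12.6, 18.7 and 25138 CPM in WT replicates 1, 2 and 3, and 1968, 9969 and 1020 CPM in the KO replicates. WT replicates 1 and 3 were also the extremes for most of the 9 genes, so the genotype comparison of the 9 genes and of the related gene lists is given with and without them. In bulk skin, fewer cells of a type and less RNA per cell cannot be told apart.

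The promoter windows of 5 genes are shown because they are the secreted alarmin and antimicrobial genes among the 9. They are the calgranulin pair S100a8 and S100a9, Lcn2, and the alarmin genes Slpi and Saa3. Each window runs from 250 bases before to 50 bases after the gene start of RefSeq (GRCm38.p6), 5′ to 3′ on the strand of the gene. Capitals mark matches on either strand to TTGCNNAA (a core of the C/EBP motif), GGGA followed after any 4 bases by CC (a core of the NF-kB motif), GAGGAAG (PU.1) or TATAAA (the TATA box), and no matches overlapped in these windows.
S100a8, chr3:90668821-90669120, plus strand: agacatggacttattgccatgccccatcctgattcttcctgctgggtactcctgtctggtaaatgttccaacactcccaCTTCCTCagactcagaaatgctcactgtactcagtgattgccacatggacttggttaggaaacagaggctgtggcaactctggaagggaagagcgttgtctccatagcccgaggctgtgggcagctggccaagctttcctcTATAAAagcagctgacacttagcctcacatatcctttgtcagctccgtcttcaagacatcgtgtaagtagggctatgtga
S100a9, chr3:90695672-90695971, minus strand: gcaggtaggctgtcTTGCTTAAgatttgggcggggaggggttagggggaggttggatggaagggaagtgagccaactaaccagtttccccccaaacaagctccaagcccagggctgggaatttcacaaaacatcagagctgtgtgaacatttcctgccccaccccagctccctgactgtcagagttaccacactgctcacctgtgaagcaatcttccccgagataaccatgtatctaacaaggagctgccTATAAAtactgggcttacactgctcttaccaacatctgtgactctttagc
Lcn2, chr2:32387690-32387989, minus strand: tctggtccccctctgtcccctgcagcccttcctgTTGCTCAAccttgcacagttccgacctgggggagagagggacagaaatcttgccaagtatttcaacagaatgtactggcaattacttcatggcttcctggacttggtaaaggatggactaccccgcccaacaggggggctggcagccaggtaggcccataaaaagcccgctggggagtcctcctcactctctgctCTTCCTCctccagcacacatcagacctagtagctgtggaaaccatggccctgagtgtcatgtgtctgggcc
Slpi, chr2:164356458-164356757, minus strand: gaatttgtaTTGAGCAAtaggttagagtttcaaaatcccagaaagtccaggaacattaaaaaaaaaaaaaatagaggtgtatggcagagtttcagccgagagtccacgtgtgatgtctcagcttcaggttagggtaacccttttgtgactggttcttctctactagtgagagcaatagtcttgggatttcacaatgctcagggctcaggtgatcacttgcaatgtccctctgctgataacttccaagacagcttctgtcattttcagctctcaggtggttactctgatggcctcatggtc
Saa3, chr7:46715627-46715926, minus strand: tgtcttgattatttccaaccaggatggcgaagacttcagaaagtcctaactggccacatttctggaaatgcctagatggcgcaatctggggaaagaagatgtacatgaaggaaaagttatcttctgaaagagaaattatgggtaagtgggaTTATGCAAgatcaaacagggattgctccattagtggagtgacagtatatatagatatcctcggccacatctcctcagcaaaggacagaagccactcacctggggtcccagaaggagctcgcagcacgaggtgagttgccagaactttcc
All 9 genes had 1 window each. TTGCNNAA was found in 4 of the 9 windows (S100a9, Lcn2, Slpi and Saa3) and in 10.8% of all 32851 promoter windows of the same length. GAGGAAG was found in 5 of the 9 (S100a8, Lcn2, Csf3r, Clec4d and Itgam) and in 13.6% of all windows. TATAAA was found in S100a8 and S100a9 and in 13.6% of all windows. Relative to the gene start, the match began at -30 in S100a8 and at 0, the start itself, in S100a9. The NF-kB core was found in Csf3r alone of the 9 and in 20.7% of all windows. Such a match is a description of these letters and not of factor binding.

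The calgranulins S100a8 (chromosome 3, 90669071 to 90670034, plus strand) and S100a9 (chromosome 3, 90692630 to 90695721, minus strand) were examined first. Their products pair to form calprotectin, a calcium- and metal-binding alarmin that fills the cytosol of neutrophils and is induced in injured keratinocytes. The genes lie 22595 bases apart. S100a8 was at 143, 49.4 and 5.11 CPM in WT replicates 1, 2 and 3, and at 41.0, 14.3 and 14.98 CPM in KO replicates 1, 2 and 3. All 3 KO values fell inside the range of the WT values, of which the highest was 28.0 times the lowest (95% exact binomial interval 19.5 to 41.6, which covers counting error only). WT mice averaged 65.9 ± 70.4 CPM and KO mice 23.4 ± 15.2 CPM (SD, n = 3 per genotype). In limma, a linear model fitted across all genes tested, the log2 fold change of KO against WT was -0.69 (SE 1.05, 95% interval -3.12 to 1.74, adjusted p = 0.998). All fold changes here were taken from log2(CPM + 0.5), and those of genes with values near the pseudocount depend on it. That of Clec4d, the most affected, was -0.28 with 0.5, -0.08 with 0.1 and -0.44 with 2.

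S100a9 followed the same libraries over a wider range. Its level was 273, 69.2 and 4.62 CPM in the WT replicates and 80.4, 24.7 and 20.3 CPM in the KO replicates. WT replicate 1 held 59.1 times the level of WT replicate 3 (95% exact binomial interval 40.7 to 89.4), from 1128 and 28 reads. The KO libraries spanned a 3.97-fold range, and all 3 lay inside that of WT. The log2 fold change was -0.40 (SE 1.29, 95% interval -3.37 to 2.57, limma adjusted p = 0.998). Per kilobase of exon, the level of S100a9 was 1.78, 1.30 and 0.841 times that of S100a8 in WT replicates 1, 2 and 3, and 1.83, 1.61 and 1.26 times in the KO replicates. S100a9 thus stood above S100a8 in 5 of 6 libraries, WT replicate 3 being the exception. Of the summed CPM of the 9 genes, the pair made up 64.7% in WT replicate 1 and 21.1% in WT replicate 3.

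**Figure D1:**
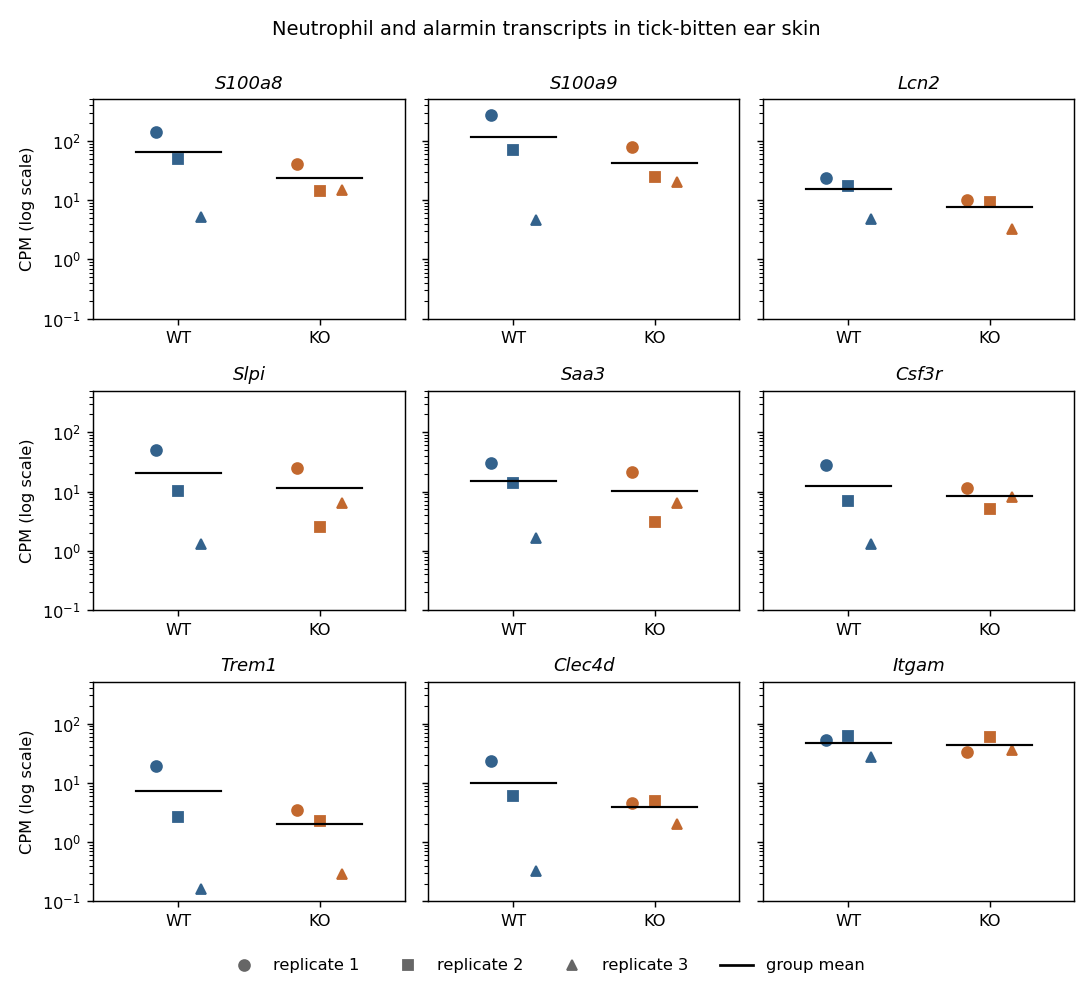
Level of each of the 9 genes in CPM (log scale) in the 3 WT and 3 KO libraries. Symbols mark the replicate and bars the group mean. WT replicate 1 is the highest library for 8 genes and WT replicate 3 the lowest for 8, while the KO values of 8 genes lie within the WT range.

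The secreted antimicrobial proteins and inhibitors came next. Lcn2 (chromosome 2, 32384637 to 32387739, minus strand) encodes lipocalin 2, which binds bacterial siderophores and so withholds iron. It was at 23.5, 17.3 and 4.78 CPM in the WT replicates and 10.2, 9.25 and 3.23 CPM in the KO replicates. KO replicate 3 lay below every WT library, and the other KO libraries lay between WT replicates 2 and 3. Lcn2 had the largest difference of the 9 on the log2 scale (-0.85, SE 0.62, 95% interval -2.27 to 0.58) and the smallest unadjusted p in limma (0.208, adjusted p = 0.998).

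Slpi (chromosome 2, 164354070 to 164356507, minus strand) encodes secretory leukocyte peptidase inhibitor, which blocks neutrophil elastase. Its level was 49.4, 10.4 and 1.32 CPM in the WT replicates and 24.9, 2.52 and 6.46 CPM in the KO replicates. Saa3 (chromosome 7, 46711998 to 46715676, minus strand), an acute phase protein made outside the liver, was at 30.0, 14.04 and 1.65 CPM in WT and at 21.5, 3.08 and 6.46 CPM in KO. For both genes the order of the libraries from high to low was WT 1, KO 1, WT 2, KO 3, KO 2 and WT 3, and the genotypes were interleaved. WT replicate 1 exceeded WT replicate 3 by 37.4 times for Slpi (95% exact binomial interval 18.6 to 87.9) and by 18.2 times for Saa3 (9.57 to 38.9). Among KO libraries, replicate 1 exceeded replicate 2 by 9.87 times for Slpi (5.07 to 22.0) and by 6.99 times for Saa3 (3.79 to 14.3). The log2 fold changes of KO against WT were -0.30 (SE 1.19) for Slpi and -0.26 (SE 0.999) for Saa3, with a limma adjusted p of 0.998 each. Serum amyloid A genes are similar copies, so reads of Saa3 may be divided among them. Of the other copies looked for, Saa1 averaged 0.795 CPM over the 6 libraries, and Saa2 and Saa4 had no row.

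The receptors of the list were lower in absolute level than the calgranulins per kilobase of exon. Csf3r (chromosome 4, 126024659 to 126044975, plus strand) encodes the receptor for granulocyte colony-stimulating factor, which drives neutrophil production. It was at 28.3, 6.92 and 1.32 CPM in the WT replicates and 11.5, 5.04 and 8.23 CPM in the KO replicates. The KO libraries all lay between WT replicates 1 and 3 and spanned a 2.29-fold range (95% exact binomial interval 1.35 to 4.06), against 21.5-fold in WT (10.5 to 50.9). Csf3r was the only gene of the 9 with a positive log2 fold change (0.19, SE 0.88, limma adjusted p = 0.998), although its mean was lower for KO (8.27 ± 3.24 CPM) than for WT (12.2 ± 14.3 CPM, SD, n = 3 per genotype).

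Trem1 (chromosome 17, 48232739 to 48246924, plus strand) encodes a receptor that amplifies inflammatory signals through the adaptor TYROBP. Its level was 19.1, 2.64 and 0.165 CPM in the WT replicates and 3.49, 2.24 and 0.294 CPM in the KO replicates. WT replicate 3 and KO replicate 3 held 1 read each, so the ratio of WT replicate 1 to WT replicate 3 was 116 with an interval of 20.2 to 4638. Clec4d (chromosome 6, 123262107 to 123275268, plus strand) encodes a C-type lectin that recognises microbial glycolipids. It was at 23.0, 6.10 and 0.330 CPM in WT and at 4.55, 5.04 and 2.06 CPM in KO. WT replicate 3 held 2 reads of Clec4d, and its ratio to WT replicate 1 was likewise imprecise (69.7, 95% exact binomial interval 18.8 to 584). The log2 fold changes were -0.75 (SE 1.17) for Trem1 and -0.28 (SE 1.06) for Clec4d, both with a limma adjusted p of 0.998, and for both all 3 KO values lay within the WT range.

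Itgam (chromosome 7, 128062640 to 128118491, plus strand) encodes CD11b, the alpha chain of the integrin Mac-1, which neutrophils share with monocytes and macrophages. It varied least of the 9. Its level was 53.7, 62.7 and 26.9 CPM in the WT replicates and 33.1, 59.1 and 36.1 CPM in the KO replicates. Replicate 2 was the highest library in both genotypes. The log2 fold change was -0.12 (SE 0.34, 95% interval -0.90 to 0.67, limma adjusted p = 0.998).

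Taking the levels per kilobase of exon over the 6 libraries, the order was S100a9 (mean 151 CPM per kilobase), S100a8 (91.8), Slpi (17.6), Lcn2 (12.4), Itgam (9.19), Clec4d (5.18), Saa3 (4.91), Csf3r (2.92) and Trem1 (1.56). The exon length is that of the union of exons in GENCODE M21, and neighbours in this order overlapped over the 6 libraries in every case.

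Taken as a list, 0 of the 9 genes passed at an adjusted p below 0.05 and 0 at an unadjusted p below 0.05 in limma. Over all genes tested the shares were 0.0140% and 2.88%. The log2 fold change was below 0 in 8 of 9 genes, with Csf3r the exception, against 56.7% of all genes. The median log2 fold change was -0.30 for the list and -0.03 for all genes. In 0 of the 9 did the KO values lie wholly above or below the WT values, which 7.84% of all genes did. The mean CPM was lower in KO for all 9, by 1.12-fold for Itgam to 3.64-fold for Trem1, against 58.3% of all genes. For 8 of the 9 genes all 3 KO values lay inside the WT range, as in 24.5% of all genes. The intervals of the difference were wide, and for S100a9 they allowed a log2 fold change from -3.37 to 2.57.

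The direction depended on single WT libraries and on the model. With all 6 libraries, a hair follicle score as covariate left 1 of the 9 lower in KO (median log2 fold change 0.71), and limma voom on recovered reads left 5 of the 9 (median -0.01). Without WT replicate 1, 1 of the 9 genes (Lcn2, -0.41) had a log2 fold change below 0, against 58.5% of all genes, and the median of the list was 0.55. The values were then 0.34 for S100a8, 0.88 for S100a9, 0.87 for Slpi, 0.55 for Saa3, 1.18 for Csf3r, 0.51 for Trem1, 0.83 for Clec4d and 0.01 for Itgam. In this fit 0 of the 9 had an unadjusted p below 0.05 in limma, against 4.03% of all genes (2.47% lower in KO). Without WT replicate 3 all 9 were below 0, against 56.6% of all genes, and the median was -1.52. S100a8 (-1.999, unadjusted p = 0.00428), Lcn2 (-1.50, 0.00866), S100a9 (-1.99, 0.0144) and Clec4d (-1.58, 0.0205) then had an unadjusted p below 0.05 in limma. These 4 of 9 compare with 4.96% of all genes, or 2.76% in the direction of a lower level in KO. After adjustment 0 of the 9 passed, against 0.112% of all genes, with an adjusted p of 0.427 for S100a8, 0.614 for Lcn2, 0.739 for S100a9 and 0.840 for Clec4d. WT replicates 1 and 3 were singled out because they were the extremes for most of these same genes. Leaving out the highest or lowest WT library moves the fold changes in a direction set by that choice. The genes also share their libraries, so the counts and p-values of these fits are no support for a difference.

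**Figure D2:**
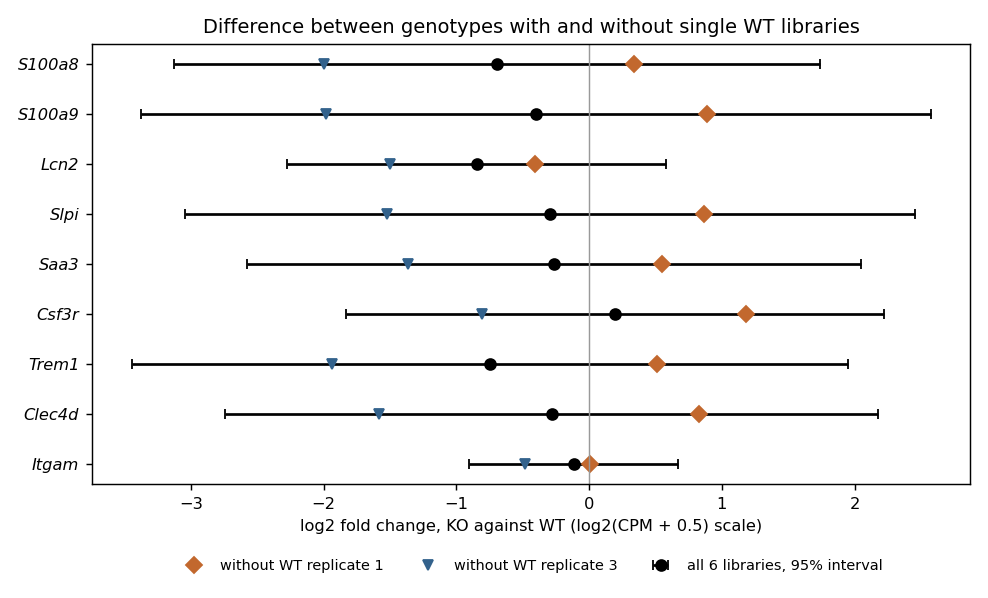
Log2 fold change of KO against WT for each gene, on the log2(CPM + 0.5) scale. Black points with bars are the limma estimate and 95% interval from all 6 libraries, and every interval includes 0. Diamonds leave out WT replicate 1 and lie above 0 for 8 genes, and triangles leave out WT replicate 3 and lie below 0 for all 9.

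To describe how the genes varied among mice of one genotype, the SD of log2(CPM + 0.5) over the 3 libraries was compared with that of all genes tested. Its median over the 9 genes was 2.39 in WT and 0.84 in KO, against 0.23 and 0.22 over all genes. In WT, 8 of the 9 exceeded the 95th percentile of all genes (0.90), the exception being Itgam (0.64). In KO, 6 of the 9 exceeded it (0.79), and Clec4d, Csf3r and Itgam did not. S100a9 had the largest SD of the 9 in WT (2.92) and Slpi the largest in KO (1.55). The SD was larger in WT than in KO for all 9 genes, as it was for 53.7% of all genes. This difference in spread was not tested. The median SD in WT was 1.82 without WT replicate 1 and 1.29 without WT replicate 3.

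**Figure D3:**
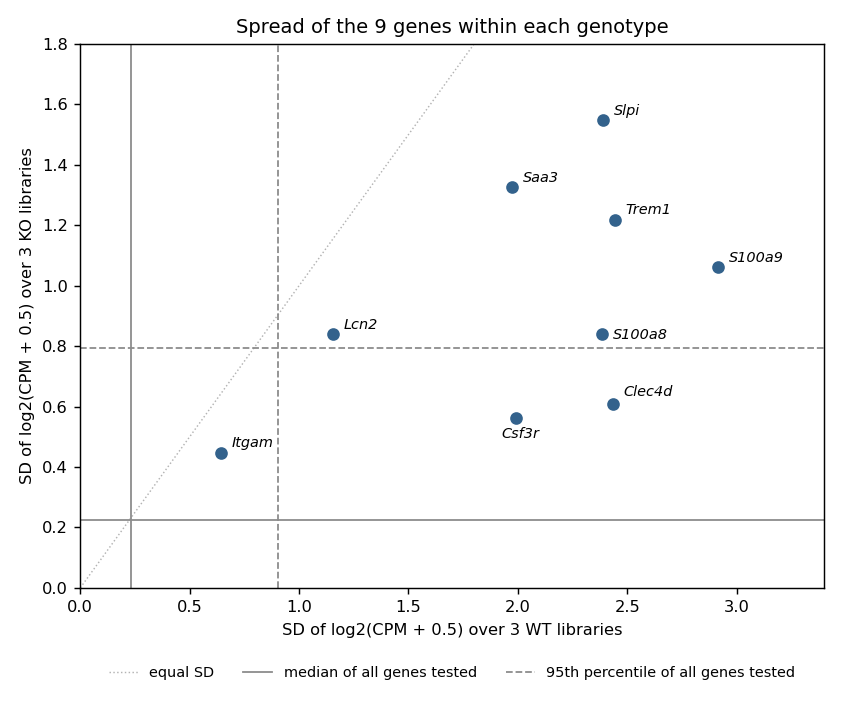
SD of log2(CPM + 0.5) over the 3 WT libraries (horizontal axis) and over the 3 KO libraries (vertical axis) for each of the 9 genes. Solid and dashed lines mark the median and the 95th percentile of all genes tested, and all 9 genes lie to the right of and above the medians and below the dotted line of equal SD.

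Most of the 9 genes had the same highest and lowest library, though their full orders of the 6 libraries were alike only for S100a9 and Trem1 and for Slpi and Saa3. WT replicate 1 was the highest of all 6 libraries for 8 of them, against 18.01% of all genes, the exception being Itgam. WT replicate 3 was the lowest for 8, against 18.2% of all genes, the exception being Lcn2. Both held for 7 genes, against 5.68% of all genes. KO replicate 1 was the highest KO library for 7, against 30.5% of all genes, Clec4d and Itgam being the exceptions. The genes of one pathway share their libraries, so these counts are not independent of each other.

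Other transcripts of the neutrophil response were then listed. Of 34 genes of neutrophil identity and granules, 23 had a row and 19 were tested. Ly6g, Mpo, Elane, Prtn3, Ctsg, Ltf, Camp and Ngp, which encode the Ly-6G antigen and granule proteins, were among the 11 not analysed here. In limma 0 of the 19 had an unadjusted p below 0.05, and the median log2 fold change was -0.05. The log2 fold change was below 0 in 11 of 19, against 56.7% of all genes. WT replicate 1 was the highest library for 11 of 19, against 18.01% of all genes. Padi4 ran the other way among the WT replicates, at 1.21, 1.63 and 21.4 CPM. Cxcr2, the receptor that guides neutrophils along CXC chemokines, was at 50.3, 24.4 and 3.79 CPM in WT and at 33.7, 14.9 and 23.5 CPM in KO. Hp, which encodes haptoglobin, had the highest mean of the list (169 CPM, log2 fold change -1.11, unadjusted p = 0.0761). Its level is no measure of neutrophils alone, since other cells make it.

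Of 18 attractants and growth factors, 13 were tested and 0 had an unadjusted p below 0.05, with a median log2 fold change of -0.28. WT replicate 1 was the highest library for 11 of the 13, against 18.01% of all genes. Ptgs2, the inducible enzyme of prostaglandin synthesis, was at 134, 25.6 and 4.45 CPM in WT and at 29.4, 7.01 and 9.11 CPM in KO. The CXCR2 ligand Cxcl2 was at 36.8 and 3.05 CPM in WT replicates 1 and 2 and was listed at 0 in WT replicate 3. In KO replicates 1 and 3 it was at 2.12 and 2.64 CPM, and it was listed at 0 in KO replicate 2. Csf3, the ligand of the receptor encoded by Csf3r, stayed below the limit of testing, with 1.94 CPM in WT replicate 1 and less than 1 CPM elsewhere.

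Of 28 partners of the receptors, 24 were tested and 0 had an unadjusted p below 0.05, with a median log2 fold change of -0.19. Itgb2, the beta chain that pairs with CD11b, was at 36.5, 45.4 and 17.3 CPM in WT and at 27.0, 47.6 and 23.2 CPM in KO, with replicate 2 the highest in both genotypes as for Itgam. Tyrobp, the adaptor of TREM1, was at 21.1, 19.5 and 11.05 CPM in WT and at 14.3, 19.3 and 10.3 CPM in KO. Socs3, a feedback inhibitor induced by STAT3, was at 242, 75.9 and 41.1 CPM in WT and at 90.6, 70.6 and 48.2 CPM in KO. Cd14, a coreceptor of TLR4, was at 55.4, 12.002 and 3.13 CPM in WT and at 11.99, 7.85 and 8.23 CPM in KO. For both genes all 3 KO values lay inside the WT range.

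Of 12 other S100 genes, 11 were tested, and their median SD over WT was 0.34, against 2.39 for S100a8 and 2.92 for S100a9. S100a6 was at 434, 302 and 278 CPM in WT and at 358, 285 and 266 CPM in KO. S100a3, a gene of the hair cuticle, had a wider range than the calgranulins (SD 4.33) and ran the other way among WT libraries, at 1.69, 0.610 and 273 CPM. Of 21 acute phase and antimicrobial genes, 2 of them members, 13 were tested, and 1 was lower at an unadjusted p below 0.05, against 1.82% of all genes in that direction. This was Lyz1, a lysozyme, at 10.7, 16.5 and 11.9 CPM in WT and at 7.89, 6.17 and 7.05 CPM in KO (log2 fold change -0.82, unadjusted p = 0.00792, limma adjusted p = 0.998). Lyz1 and Lyz2 are near-identical copies, so the split of their reads is uncertain.

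Markers of other cells that can express these genes were set beside them. The sum of 16 genes of activated keratinocytes with a row was 12950, 6458 and 1548 CPM in WT and at 6558, 1662 and 3770 CPM in KO. Its order of libraries was that of Slpi and Saa3. Within this list Krt6a, a keratin of wounded epidermis, was at 4343, 1932 and 351 CPM in WT and at 1849, 397 and 940 CPM in KO. The sum is weighted to such high keratins, with Krt6b at 3022 and Krt16 at 3334 CPM in WT replicate 1. Its order was not that of every gene in the list. Krt17 was at 858, 842 and 775 CPM in WT and at 499, 497 and 418 CPM in KO. In the same list Krt17 (log2 fold change -0.81, unadjusted p = 8.54e-05) and Areg (-2.001, 0.0144), which encodes a ligand of the epidermal growth factor receptor, were lower at an unadjusted p below 0.05, which makes 2 of 16 against 1.82% of all genes in that direction. Their adjusted p in limma was 0.340 and 0.998. The sum of 15 macrophage and monocyte genes was 927, 1312 and 636 CPM in WT and at 649, 1249 and 766 CPM in KO, and its order of libraries was that of Itgam. The order of the summed attractants was that of S100a9 and Trem1. The orders of the summed neutrophil identity, receptor partner, other S100 and acute phase lists were each that of 0 of the 9. The neutrophil sum is weighted to Hp, which other cells also make. Hp supplied 135 of the 331 CPM of this sum in WT replicate 3, but 43.5 of the 301 CPM in KO replicate 3. The order of the neutrophil sum thus cannot show whether its genes other than Hp ranked the libraries as any of the 9 did. All 22 hair follicle genes had a log2 fold change above 0 (median 2.51, 0 at an unadjusted p below 0.05), and their sum ran against 8 of the 9 genes among WT libraries, being lowest in replicate 1 and highest in replicate 3. Sums of mast cell markers (88.4 to 176 CPM over the 6 libraries) and T cell markers (17.6 to 26.9 CPM) covered narrower ranges, and those of dendritic cell markers were 505 to 797 CPM. Blood genes were at 264 to 7530 CPM in WT and 94.9 to 1675 CPM in KO, with the highest sum in WT replicate 3. Sums of skin markers were 25088 to 45153 CPM and those of skeletal muscle genes 9517 to 20263 CPM over the 6 libraries. All 24 muscle genes had a log2 fold change below 0, 6 of them at an unadjusted p below 0.05, against 56.7% and 1.82% of all genes. The part of these cells in the levels of the 9 genes was not tested.

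The direction of 4 of these lists differed between the fits without WT replicate 1 and without WT replicate 3. Both fits were chosen after seeing the data. Without WT replicate 1 the median log2 fold change was 0.14 for neutrophil identity (6 of 16 genes below 0), 0.27 for attractants (2 of 11), 0.08 for receptor partners (10 of 23) and 0.64 for activated keratinocytes (4 of 15). None of these genes other than Krt17 and Areg had an unadjusted p below 0.05 in limma in that fit. Over all genes 4.03% did, and 58.5% had a log2 fold change below 0. Without WT replicate 3 the medians were -0.61 (19 of 21), -1.05 (13 of 13), -0.41 (21 of 23) and -1.40 (15 of 16), against 56.6% of all genes below 0. In this fit 4 attractant genes were lower at an unadjusted p below 0.05 (Ccl4, Cxcl2, Cxcl3 and Ptgs2), as were 5 receptor partners (Cd14, Socs3, Stat3, Syk and Tlr4) and 8 activated keratinocyte genes. Ptgs2 is in both the attractant and the keratinocyte list. Over all genes 2.76% were lower at that threshold. In the neutrophil list 5 genes were lower and 1 was higher, and 0 genes of these 4 lists passed after adjustment, against 0.112% of all genes. For acute phase and antimicrobial genes the median was -0.10 without WT replicate 1 and -0.73 without WT replicate 3, with Lyz1 at an unadjusted p below 0.05 in both. For other S100 genes it was 0.03 and 0.02. The macrophage list had 10 of 15 genes below 0 without WT replicate 1 and 14 of 15 without WT replicate 3. The hair follicle median was 0.98 and 5.60, and in the latter fit all 22 genes were higher at an unadjusted p below 0.05, 7 of them after adjustment. The shares of all genes called in that fit, in either direction, were 4.96% and 0.112%. For skeletal muscle 24 and 23 of 24 genes were below 0, with medians of -0.56 and -0.44.

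**Figure D4:**
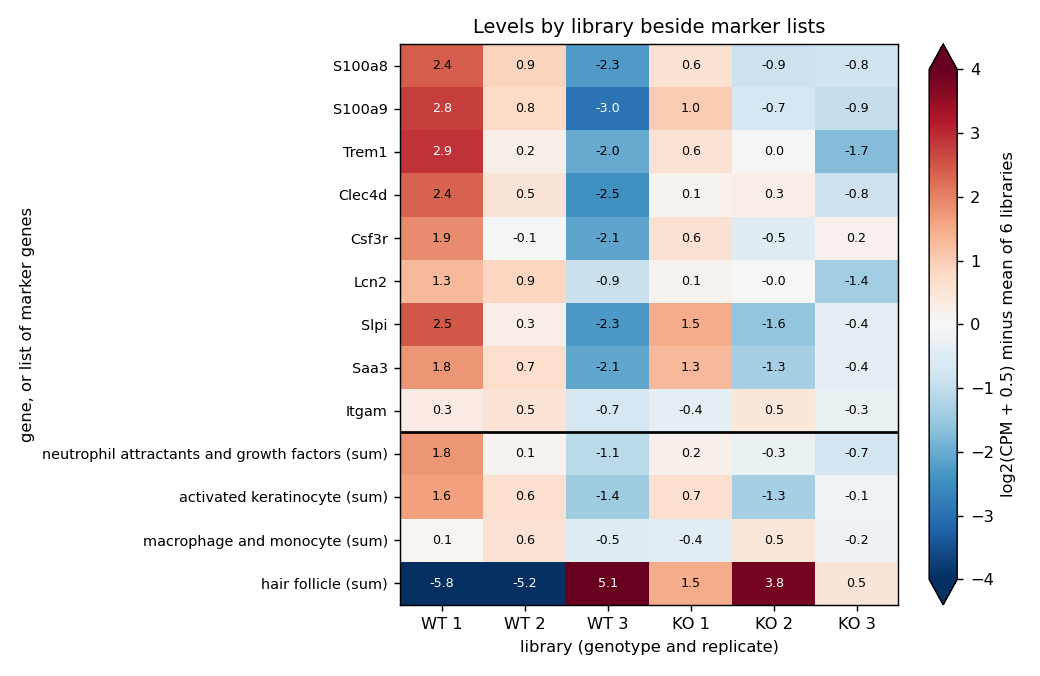
Log2(CPM + 0.5) in each library less the mean of the 6 libraries, for the 9 genes (above the line) and for the summed CPM of 4 lists of marker genes (below it). Red is above and blue below the mean, with colours capped at 4 on either side. WT replicate 1 is red and WT replicate 3 blue for all 9 genes, and the hair follicle row has the opposite colours.

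Genes with the most similar profile were found by the root mean square difference of centred log2(CPM + 0.5) over the 6 libraries, among 11678 other genes that averaged 5 CPM or more. For S100a8 these were Ptgs2 (0.34), Sh2d5 (0.35) and Il1b (0.43), which encodes interleukin 1 beta, where the median gene differed by 1.51. For S100a9 they were Il1b (0.40), Acod1 (0.42) and Sh2d5 (0.48), against a median of 1.81. S100a8 and S100a9 differed from each other by 0.38. For Trem1 and Clec4d the list held Il1b, Hdc and Sh2d5, and the smallest difference was that of Clec4d to Hdc (0.29), the enzyme that makes histamine. Hdc was at 49.9, 9.36 and 1.65 CPM in WT and at 9.25, 8.69 and 5.88 CPM in KO.

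The other members had different neighbours. Csf3r was nearest to Cxcr2 (0.29), Slfn4 (0.32) and Prss27 (0.40). Slpi was nearest to Sprr2e (0.16), Stfa2 (0.37) and Gsta4 (0.42), and Saa3 to Krt6a (0.31), Stfa2 (0.34) and Sprr2h (0.37). Sprr2e and Sprr2h encode small proline-rich proteins of the cornified envelope, and both the Sprr2 and Stfa genes have near-identical copies that can share reads. Lcn2 was nearest to Tinagl1 (0.32), Themis2 (0.34) and Atp6v0c-ps2 (0.36), against a median gene at 0.94. Itgam was nearest to the leukocyte cytoskeleton genes Nckap1l (0.07), Myo1f (0.10) and Lcp1 (0.10), against a median gene at 0.48. The nearest member to Itgam was Lcn2, at 0.69, which was farther than the median gene.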

How the data were processed

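RNA-seq libraries of tick-bitten ear skin from 3 WT and 3 KO mice were used, with groups taken from the titles of the samples. The authors trimmed the reads, aligned them to mm10 with STAR (2.7.3a), quantified transcripts in Partek Flow by expectation maximization and deposited values in CPM, each gene count divided by the library total plus an offset of 0.0001. Whether strand was used in counting is not stated in the labels or methods. Reads were recovered as estimates from the step between low values, since 91.9% to 92.6% of values under 20 reads lay within 0.1 of a whole read. No count model was therefore used for the main comparison. The recovered reads entered the voom alternative and the binomial intervals, which share this uncertainty.

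Genes averaging 1 CPM or more were analysed as log2(CPM + 0.5). KO was compared with WT with limma (3.58.1, R 4.3.3; lmFit, eBayes with trend, two-sided) on all 6 libraries without covariates, with Benjamini-Hochberg adjustment over all genes tested. This model was also run on simulated reads drawn from the means and spreads of these genes. Positions are those of the deposited table, with listed ends lowered by 1. The members, lists and rules were chosen with earlier results of these data known. By rule, all 9 members are named, genes of other lists at an unadjusted p below 0.05 or of high mean level, and the 3 nearest profiles per member. Further list genes were chosen after their values were seen. Alternatives covered pseudocount, filter, scaling, moderation, weights, covariates, a replicate block, voom and each library left out. P-values set the difference between genotypes against the spread among 3 mice per genotype, pooled over both genotypes and moderated across all genes.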

Additional observations from a re-analysis of the deposited data

How the results depend on the processing

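For 20 alternatives, 143 counts, medians and spreads stayed within the limits used and 17 moved. Part of this agreement was fixed in advance. Moderation, weights, covariates and the replicate block cannot alter a spread. Leaving out a library cannot alter the spread of the other genotype. The limits were 1.5 times for a count and 1 SD for a median or spread, and that SD was 1.51 for the median of the members. The median changed sign within it in 2 alternatives, to 0.71 with a hair follicle covariate and 0.55 without WT replicate 1, and it was -1.58 with a skeletal muscle covariate. Of single members, 153 values kept their direction and 26 changed it, none of which had passed a threshold, and the adjusted p of the members was 0.427 or more in limma. The kept values include those under another filter, another moderation or the replicate block, which leave each log2 fold change as it was. The cause was not tested.

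With a hair follicle score added as covariate, 1 member was lower in KO, and the log2 fold changes were 0.40 for S100a8, 0.91 for S100a9, 0.85 for Slpi, 0.74 for Saa3, 0.13 for Trem1, 0.71 for Clec4d and 0.11 for Itgam. This fit called 9 genes at an adjusted and 884 at an unadjusted p below 0.05. With limma voom on recovered reads 5 members were lower, Slpi was at 0.34, Saa3 at 0.26 and Clec4d at 0.35, and 1 gene was called after adjustment. With the skeletal muscle score as a covariate Csf3r was at -0.52, 2 members (Lcn2 and Trem1) had an unadjusted p below 0.05, and the calls over all genes were 0 and 650. Array weights gave 641 genes at an unadjusted p below 0.05. With the replicate number as a block 1 member (Lcn2, unadjusted p = 0.00961, adjusted p = 0.976) was below 0.05. Whether the numbers pair the samples is not stated in the labels. The deviations of same-numbered libraries correlated at 0.38, -0.31 and -0.22 across genes, and those of differently numbered libraries at -0.38 to 0.45. Deviations within a genotype depend on each other, so these values cannot settle the pairing.

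With single libraries left out, genes called at an adjusted p below 0.05 numbered 0 (without WT replicate 2) to 16 (without WT replicate 3), and at an unadjusted p 309 to 707, the extremes coming from the same libraries. Members below 0.05 unadjusted numbered 0 to 4, and members lower in KO 1 to 9. The median log2 fold change ran from -1.52 to 0.55, and the median SD in WT from 1.29 without WT replicate 3 to 3.31 without WT replicate 2. The ranges of the log2 fold change were -1.999 to 0.34 for S100a8, -1.99 to 0.88 for S100a9, -1.52 to 0.87 for Slpi, -1.36 to 0.55 for Saa3, -0.81 to 1.18 for Csf3r, -1.93 to 0.51 for Trem1, -1.58 to 0.83 for Clec4d and -0.48 to 0.12 for Itgam. Lcn2 stayed below 0 (-1.50 to -0.36). Of all unadjusted calls 63.1% had a lower level in KO, against 50.7% after median-of-ratios rescaling and 45.4% after quantile normalization. At these depths Trem1 and Clec4d rested on 1 to 2 reads in WT replicate 3.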
